A study of Mus musculus with 20 samples.

Results

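The B cells described here are the cells that the authors named B cell when they clustered single-cell transcriptomes of mouse kidneys. They numbered 2128 of 113579 cells, or 1.87%, which made B cell the 13th largest of 18 clusters in 18 libraries. The mice were male C57BL/6, 10 to 12 weeks old. Control kidneys gave 6 libraries, and both renal pedicles were clamped for 23 min (IRI short) or 30 min (IRI long; IRI is ischemia-reperfusion injury) in the others, with 2 libraries each at 1, 3 and 14 d after ischemia. The study names sham-operated mice, whose pedicles were exposed but not clamped, as controls of its inhibitor experiment, and the labels do not say which control libraries came from such mice. Kidneys were perfused with PBS and dissociated with enzymes, so the values are shares of the cells released and kept, not cell numbers per kidney. A second clustering by the authors covered 20 libraries (20-library annotation). It added 1 library of IRI long at 14 d with VX-765 (100 mg/kg, a caspase-1 inhibitor used against pyroptosis) and 1 with liproxstatin (10 mg/kg, an inhibitor of ferroptosis), injected before ischemia and daily afterwards.

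B cells are lymphocytes that bind antigen through surface immunoglobulin, which signals through the receptor subunits encoded by Cd79a and Cd79b. They present antigen to T cells, release cytokines and give rise to antibody-secreting plasma cells. The healthy kidney holds few of them, and B and T cells gather in kidneys with lasting inflammation. The tables used here hold cluster names and map positions but no expression values, so the name was not checked against Cd79a and Cd79b, and B cell subtypes were not separated.

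The name was instead compared between both clusterings. Since both came from the same transcriptomes of these cells, agreement shows how stable the grouping was, not whether the cells are B cells. Of the 2128 B cells, 2019 (94.9%) were also named B cell in the second clustering, and 109 had another name there. T cell was the most frequent of these names with 33 cells (1.55%), followed by Fibro with 19 and PST with 13, the last 2 being named here after their counts were seen. In the opposite direction, 93 cells gained the name, of which 26 came from T cell_2, the larger T cell cluster, and 24 from Mono_1, a monocyte cluster. B cells kept their name about as often as T cell_1 did, with 94.6% of cells named T cell or NK (natural killer cell) in the second clustering, whereas T cell_2 did so for 41.7%. One control library stood apart. In norm3 only 20 of 33 B cells (60.6%) kept the name, against 88.1 to 97.9% in the other libraries. Its B cell fraction was 1.45% in the first clustering and 1.06% in the second.

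Libraries held 2064 to 14320 cells and 33 to 252 B cells. For fractions of single libraries, exact 95% binomial (Clopper-Pearson) intervals are given, which cover counting error only. The cell barcodes fell into 2 sets that no sample label mentions. The control libraries norm1, norm2, norm3, norm4 and Scl had 461 barcodes in common over their 10 pairs (smaller set). The control library norm5 and all IRI and inhibitor-treated libraries had 1441 in common over 105 pairs (larger set), and between both sets 75 were in common over 75 pairs. From the cells per library, these overlaps correspond to an estimated 746058 possible barcodes in the smaller and 3565240 in the larger set. The methods name 1 library kit for all samples, and whether the kit differed between the sets was not tested. Apart from norm5, the barcode set and the difference between control and IRI cannot be told apart. Of the B cells, 59 (2.77%) carried a barcode that also occurred in another library, against 2.40% of all cells, and 1 barcode belonged to a B cell in 2 libraries.

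B cells made up a larger share of all cells in injured than in control kidneys. Over all days, this rise was not seen when shares were centred over all clusters. Among immune cells the mean B cell share was lower in injured kidneys than the mean of all control libraries. In both ischemia times the mean share of all cells was highest at 3 d, although the differences between days did not pass the test. In control the fraction was 0.585% in norm5, 0.608% in Scl, 0.984% in norm2, 1.04% in norm4, 1.39% in norm1 and 1.45% in norm3. In IRI short it was 1.98 and 2.07% at 1 d, 3.91% (IRF3) and 4.65% (IRF11) at 3 d, and 2.19% (IRF8) and 2.07% (IRF10) at 14 d. All 6 of these libraries lay above every control library. In IRI long it was 1.82% (IRF1) and 1.16% (IRF5) at 1 d, 5.27% (IRF4) and 2.33% (IRF7) at 3 d, and 1.87% (IRF9) and 2.44% (IRF12) at 14 d. Values of IRI libraries are given in this order throughout. Here 5 of 6 libraries lay above every control library, and IRF5 at 1 d (1.16%) lay within the control range. Injured kidneys contributed most of the cluster, with 998 B cells (46.9%) from IRI short, 809 (38.0%) from IRI long and 321 (15.1%) from control. They also contributed most of all cells, with 40630 from IRI short and 35077 from IRI long, against 37872 from control. The libraries at 3 d held 2064 to 4784 cells, against 4518 to 10917 in the other IRI libraries. In IRI short 367, 306 and 325 B cells came from 1, 3 and 14 d, and in IRI long 202, 300 and 307. Whether the high fraction at 3 d goes with the smaller libraries was not tested.

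**Figure D1:**
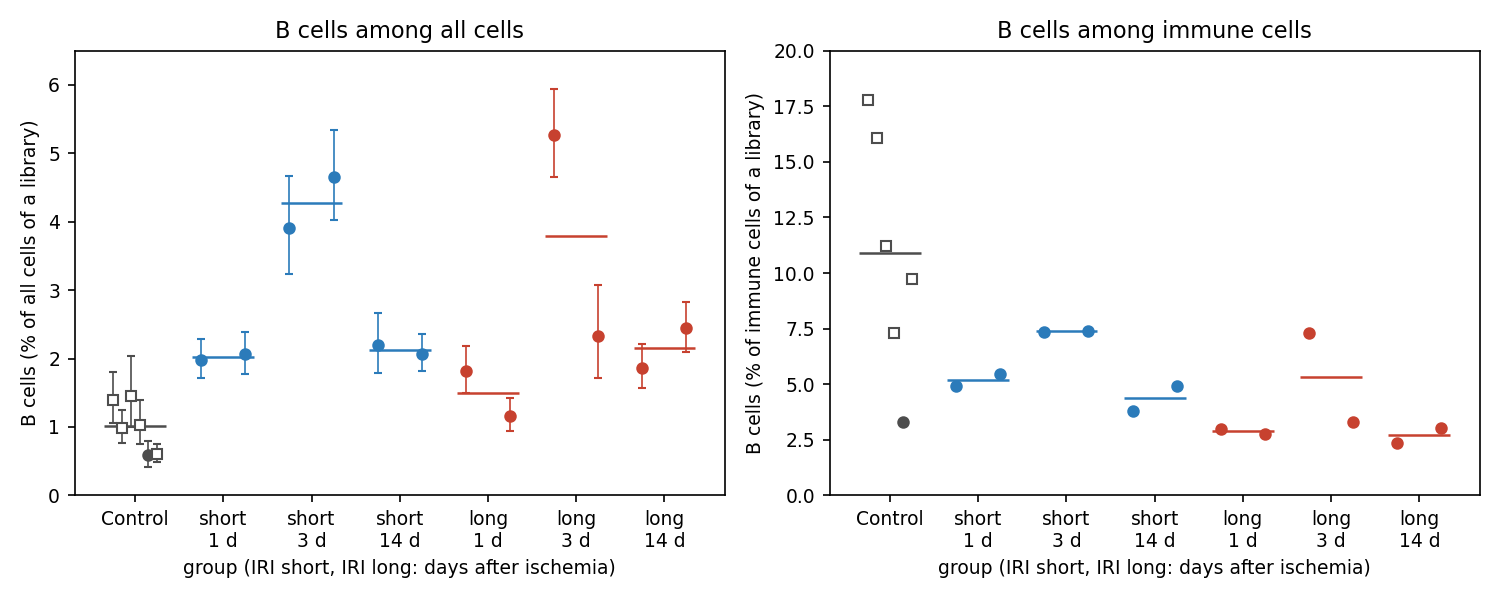
B cells per library as a percentage of all cells (left, with exact 95% binomial intervals) and of immune cells (right), by group; horizontal lines are group means, filled circles are libraries of the larger barcode set and open squares those of the smaller set. Among all cells the IRI short libraries, at 1.98 to 4.65%, sit above all control libraries, whereas among immune cells norm5 (3.29%) sits below the other control libraries and within the IRI range.

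When the 18 libraries were ordered by this fraction, most neighbours could not be separated by counting error. The intervals of neighbours did not overlap at 2 places only. The 3 highest libraries, all from 3 d (3.91 to 5.27%), were separated from IRF12 of IRI long at 14 d (2.44%, interval 2.09 to 2.83), and Scl (interval 0.487 to 0.749) was separated from norm2 (interval 0.760 to 1.25). The interval of norm5, the lowest library, was wider (0.416 to 0.799) and overlapped both. The 2 libraries of IRI long at 3 d differed from each other beyond counting error, with 5.27% (4.65 to 5.94) in IRF4 and 2.33% (1.72 to 3.07) in IRF7.

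Control libraries had a mean B cell fraction of 1.01% ± 0.370 (SD, n = 6). The mean of the IRI short libraries was 2.81% ± 1.16 (SD, n = 6), or 2.79 times that of control, and the mean of the IRI long libraries was 2.48% ± 1.44 (SD, n = 6), or 2.46 times. On the logit scale, compared with limma over all 18 clusters, the B cell fraction rose by 1.03 (standard error 0.24, adjusted p = 0.000674) in IRI short. This call was shared by most clusters, since 66.7% of them passed the threshold in this comparison. In IRI long the B cell fraction rose by 0.86 (standard error 0.24, limma adjusted p = 0.00276), with 83.3% of clusters past the threshold. Separation without overlap of any library was found for 61.1% of clusters between IRI short and control, B cells among them, and for 44.4% between IRI long and control, where B cells did overlap. When limma also fitted a term for the barcode set, which rests on norm5 alone, the changes were 1.52 and 1.34 (adjusted p = 0.00617 and 0.00838). Two-sided exact permutation tests of the mean fraction gave p = 0.00216 for IRI short, the smallest that 6 against 6 libraries allow, and p = 0.00649 for IRI long. After adjustment over the 40 exact tests of B cell fractions and ratios these p-values became 0.0866 and 0.108, and none of the 40 passed, against 12 before adjustment. A test that is alone at the smallest possible p cannot pass this adjustment, however well its groups are separated, as in IRI short. The adjusted values therefore cannot decide on that comparison. Without IRF4 the difference of IRI long from control was 0.913 in place of 1.47 percentage points. Without IRF5, an IRI long library, the exact permutation test of IRI long also gave p = 0.00216. Both comparisons then passed with an adjusted p of 0.0433. The difference and unadjusted p of IRI short do not involve IRF5 and stayed the same, so its call changed through the adjustment only.

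The rise was a rise relative to the other cells of a library, and its direction depended on those cells. Centred on the mean log level of all 18 clusters, the B cell change was −0.08 for IRI short and −0.10 for IRI long, neither of which passed (limma adjusted p = 0.709 and 0.751). Among cells other than proximal tubule (PT) cells, B cells were 2.70% ± 1.56 for IRI long, 3.15% ± 1.23 for IRI short and 2.12% ± 0.796 for control (SD, n = 6 each), and neither difference from control passed (exact permutation tests, p = 0.522 for IRI long and 0.141 for IRI short). Among cells other than myeloid cells, B cells were 5.69% ± 3.16 for IRI long, 4.33% ± 2.18 for IRI short and 1.03% ± 0.377 for control (SD, n = 6 each). With this denominator all 12 IRI libraries lay above all control libraries, a separation that 38.5% of the 13 non-myeloid clusters showed in each comparison, and both exact permutation tests gave p = 0.00216, or 0.0433 after adjustment in a family of 40 tests in which this percentage took the place of that among all cells.

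Among immune cells the order of the groups turned around. Immune cells as a whole were 6.11 to 17.8% of the cells in control libraries, 37.8 to 62.8% in those of IRI short and 41.7 to 80.6% in those of IRI long. B cells were 3.29, 7.29, 9.75, 11.2, 16.1 and 17.8% of the immune cells in the control libraries. In IRI short they were 4.94 and 5.46% at 1 d, 7.35 and 7.41% at 3 d, and 3.82 and 4.93% at 14 d. In IRI long they were 3.01 and 2.78% at 1 d, 7.29 and 3.32% at 3 d, and 2.36 and 3.03% at 14 d. The means were 3.63% ± 1.82 for IRI long, 5.65% ± 1.44 for IRI short and 10.9% ± 5.42 for control (SD, n = 6 each). B cells overlapped with control in both, while 50 and 62.5% of the 8 immune clusters were separated from control without overlap in IRI short and IRI long. The exact permutation test gave p = 0.0433 for IRI short against control and p = 0.0108 for IRI long against control, or 0.157 and 0.108 after adjustment. The high control mean came from the 5 libraries of the smaller barcode set. Against norm5 alone (3.29%), the mean of IRI short was higher by 2.36 percentage points and that of IRI long by 0.340, so the direction turned.

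In the first clustering, on every day both IRI long libraries had a lower B cell percentage of immune cells than both IRI short libraries. On 3 d the margin was small, with 7.29% in IRF4 against 7.35% in the lower IRI short library. In the second clustering the separation was absent at 3 d, since IRF4 (10.1%) lay above IRF11 of IRI short (9.30%). The mean difference in the first clustering was −2.02 percentage points, with an exact permutation p of 0.00926 within days, the smallest that this design allows, and 0.108 after adjustment. Such a separation on every day was shown by 25% of the 8 immune clusters, and by 22.2% of the 18 clusters as a percentage of all cells. As a percentage of all cells, B cells were not separated between IRI long and IRI short, with a difference of means of −0.332 percentage points (p = 0.593 in the exact permutation test within days). The limma change was −0.18 with a 95% interval from −0.68 to 0.32 (adjusted p = 0.643), in a comparison where 27.8% of clusters passed. The changes of IRI long against IRI short at 1, 3 and 14 d were −0.34, −0.20 and 0.00211, and B cells passed on none of these days in limma, against 5.56, 0 and 33.3% of clusters.

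The rise over control was followed by day. At 3 d the mean fraction was 4.24 times that of control in IRI short and 3.76 times in IRI long. The logit change was 1.53 (standard error 0.34, limma adjusted p = 0.000433) in IRI short and 1.33 (standard error 0.34, limma adjusted p = 0.00126) in IRI long, where 72.2 and 88.9% of clusters passed. All 4 libraries at 3 d lay above every control library, as 66.7% of clusters were separated in IRI short and 77.8% in IRI long. The IRI long value depended on IRF4, without which the change was 0.91 and did not pass (limma adjusted p = 0.0652). At 14 d the change was 0.81 in both, with limma adjusted p = 0.0472 in IRI short and 0.0359 in IRI long, where 55.6 and 72.2% of clusters passed. The call in IRI short at 14 d was lost without norm2, norm5, Scl, IRF9, IRF12 or any IRI short library, and that in IRI long at 14 d without norm5, Scl, IRF9 or IRF12. At 1 d the change was 0.76 in IRI short (limma adjusted p = 0.0592) and 0.42 in IRI long (limma adjusted p = 0.286), and B cells did not pass where 55.6 and 61.1% of clusters did, although IRI short at 1 d passed without norm1 or norm3. In exact permutation tests of 2 against 6 libraries, every group other than IRI long at 1 d (p = 0.143) reached p = 0.0357, the smallest possible.

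**Figure D2:**
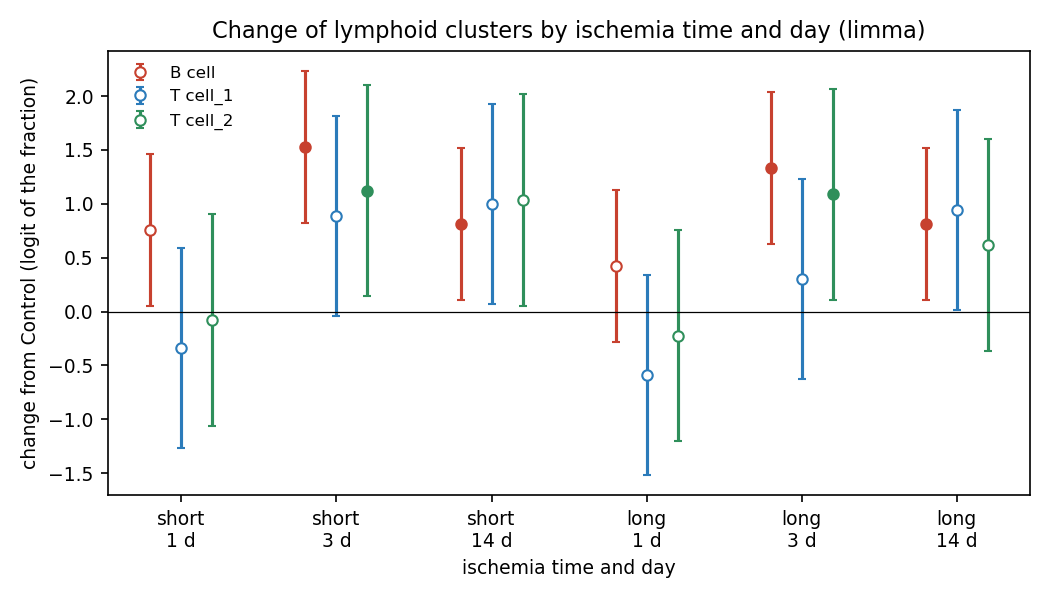
Change from control of the clusters B cell, T cell_1 and T cell_2 on the logit scale of the fraction, for each ischemia time and day (2 libraries each against 6 control libraries); points are limma estimates, bars their 95% intervals, and filled points passed an adjusted p of 0.05. B cells passed at 3 and 14 d in both ischemia times, T cell_2 at 3 d in both, and T cell_1 in none.

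Between days, with both ischemia times averaged, the B cell fraction was higher at 3 d than at 1 d by 0.84 and lower at 14 d than at 3 d by a change of −0.62 on the logit scale. Neither passed in limma over 18 clusters (adjusted p = 0.0582 and 0.125), where 5.56 and 22.2% of clusters passed, although the former passed without norm1, norm4, norm5, Scl or IRF7. From 1 d to 14 d the change was 0.22 with a 95% interval from −0.39 to 0.83 (limma adjusted p = 0.587), where 33.3% of clusters passed. This change over time differed between IRI long and IRI short by 0.34 with an interval from −0.88 to 1.56 (limma adjusted p = 0.854), where 11.1% of clusters passed.

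T cells were the clusters most alike to B cells in kind, and their course over time was set beside that of B cells. T cells were 5.22 and 5.29% of all cells at 1 d, 18.8 and 14.6% at 3 d, and 19.5 and 13.7% at 14 d in IRI short. In IRI long they were 6.69 and 3.35% at 1 d, 15.5 and 11.9% at 3 d, and 16.6 and 10.1% at 14 d. In control they ranged from 3.21 to 14.3% with a median of 6.75%. At 3 d the mean was 2.17 times that of control in IRI short and 1.78 times in IRI long. In the second clustering, which named 41.7% of T cell_2 as T cell or NK, these ratios were 1.67 and 1.05. At 14 d they were 2.16 and 1.73 in the first and 2.02 and 1.94 in the second clustering. The rise of T cells in IRI long at 3 d thus depended on the clustering. T cell fractions overlapped between 3 d and 14 d. The B cell fractions of all 4 libraries at 14 d lay below those of 3 of the 4 libraries at 3 d, and above that of IRF7 in 1 of them. T cell_1 rose from 1 d to 14 d by 1.43 on the logit scale (standard error 0.38, limma adjusted p = 0.00545), and T cell_2 changed by 0.98 (limma adjusted p = 0.0681). Neither T cell cluster passed in IRI short or IRI long over all days, with changes of 0.52 and 0.22 for T cell_1 and of 0.69 and 0.49 for T cell_2 (limma adjusted p between 0.0697 and 0.496). That B cells passed here and T cells did not does not show that they differed, for which the ratio of both was tested.

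Per 100 T cells, fewer B cells were counted at 14 d than at 1 d, with no call after adjustment. The ratio was 38.0 and 39.1 in IRI short and 27.2 and 34.6 in IRI long at 1 d. At 3 d it was 20.8 and 31.8 in IRI short and 34.0 and 19.6 in IRI long. At 14 d it was 11.2 and 15.1 in IRI short and 11.2 and 24.2 in IRI long. In the first clustering all 4 libraries at 1 d lay above all 4 libraries at 14 d, while those at 3 d overlapped both. Of the 16 clusters other than T cells, 56.2% were separated between 1 d and 14 d in their ratio to T cells. The log2 ratio of B to T cells was lower by a difference of −0.82 at 3 and 14 d together than at 1 d (exact permutation test within ischemia times, p = 0.0489; 0.163 after adjustment). The B cell percentage of lymphoid cells (T and B cells) differed by −8.70 percentage points between the same days (exact permutation test, p = 0.0356; 0.143 after adjustment). The second clustering gave 52.5 and 65.7 B cells per 100 T cells in IRI short at 3 d. In IRI long at 3 d it gave 96.1 and 66.7. Its libraries ranged from 43.9 to 92.6 at 1 d and from 18.6 to 35.3 at 14 d. There 3 d overlapped 1 d only, and how many other clusters did so was not counted.

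**Figure D3:**
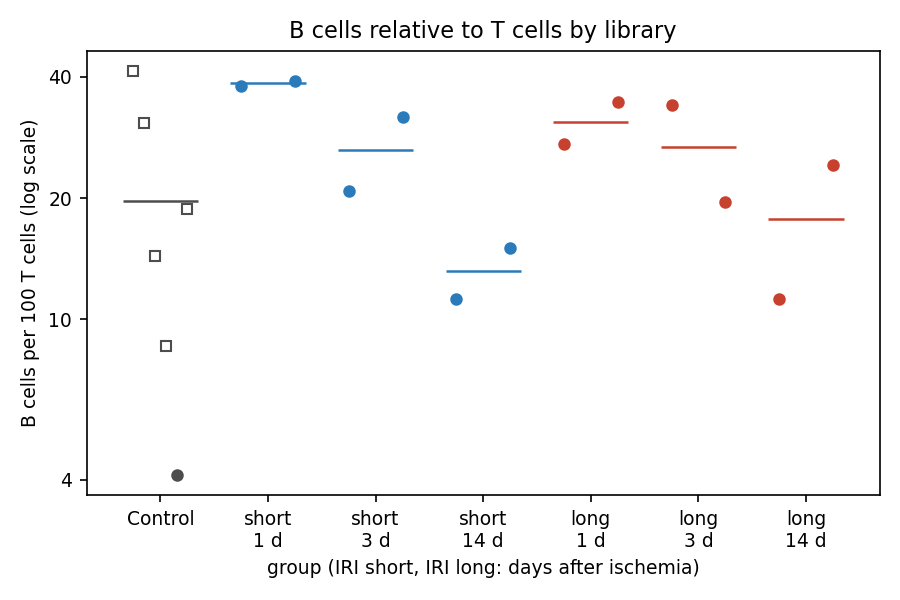
B cells per 100 T cells in each library on a log scale, by group; horizontal lines are means, filled circles are libraries of the larger barcode set and open squares those of the smaller set. The libraries at 1 d, at 27.2 to 39.1, sit above those at 14 d, at 11.2 to 24.2, and the control libraries span 4.11 to 41.4.

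Control libraries covered more than the whole IRI range of this ratio, with 4.11 in norm5, 8.59 in norm4, 14.3 in norm3, 18.8 in Scl, 30.7 in norm2 and 41.4 in norm1. The log2 ratio of B to T cells was not separated from control: the difference was 0.62 in IRI short (exact permutation test, p = 0.310) and 0.63 in IRI long (p = 0.290 by the same exact test). IRI long and IRI short differed by 0.01 (exact permutation test within days, p = 0.981). Of the lymphoid cells, B cells made up 19.7% ± 5.90 for IRI long, 20.0% ± 7.65 for IRI short and 15.5% ± 9.51 for control (SD, n = 6 each). Across the control libraries the B cell fraction of all cells varied from 0.585 to 1.45%, a narrower range than that of T cells.

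Where B cells lay in the UMAP, the authors' map of the cells with axes without unit, was described next. The neighbours were the 30 nearest cells of a B cell in this map. For 2058 B cells (96.7%) most of these were B cells, and for 1955 (91.9%) all were. The median position was 2.15 on UMAP_1 and −5.71 on UMAP_2, and the nearest cluster medians were those of Mono_2, at a distance of 3.74, and T cell_2, at 4.55. Only 55.0% of the 109 renamed B cells had a majority of B cell neighbours, against 99.0% of those with the same name in both clusterings. In norm3, 11 of the 13 renamed cells had such a majority. A majority of B cell neighbours was found for 97.0% ± 2.37 of the B cells of IRI long libraries, 97.3% ± 0.694 of those of IRI short and 93.1% ± 2.54 of those of control (SD, n = 6 each).

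**Figure D4:**
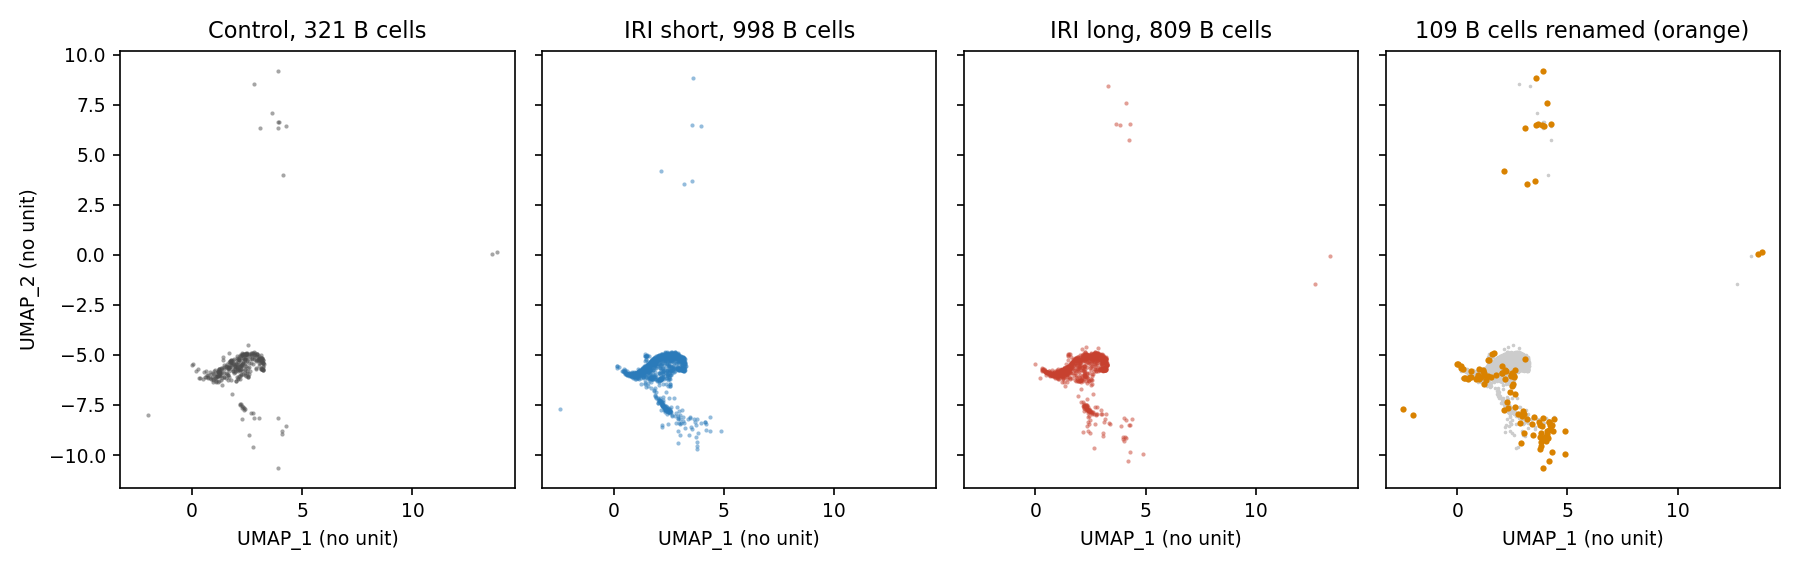
Each B cell at its UMAP coordinates (no unit), by treatment, and in the right panel the 109 B cells with another name in the second clustering (orange) over all others (grey). Most cells form 1 island near UMAP_2 of −5.64, a tail runs below −7, and a few lie above 0 away from the island.

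The map showed a main island, a tail below −7 on UMAP_2 and scattered cells above 0, limits that were set after the map was seen. The island held 1867 B cells (87.7%), of which 97.4% kept their name. The tail held 238 (11.2%), of which 80.3% kept it, and 20 of its 47 renamed cells were named T cell and 18 Fibro. Only 23 cells lay above 0, of which 9 kept the name. The tail held 6.40% ± 4.25 of the B cells of a control library, 13.0% ± 2.47 for IRI short and 9.68% ± 4.02 for IRI long (SD, n = 6 each). It ranged from 0 to 10.9% in control libraries, 10.1 to 17.2% in those of IRI short and 2.08 to 13.1% in those of IRI long, so control and IRI short overlapped. These numbers are small, with 0 to 7 tail cells in a control library, and they were not tested. The cells above 0 were 1.54 to 7.14% of B cells in control libraries and 0 to 3.30% in IRI libraries.

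The mean position on UMAP_2 was −5.30 for control, −5.84 for IRI short and −5.70 for IRI long. The difference from control was −0.542 in IRI short (exact permutation test, p = 0.00216; 0.0173 after adjustment over 8 tests of position, a call that was lost when 1 of the IRI short libraries was left out) and −0.408 in IRI long (exact permutation test, p = 0.0216; 0.0577 after adjustment). The latter passed without norm2 or Scl (adjusted p = 0.0390 and 0.0231 in the exact permutation test). With the median coordinate in place of the mean, the difference in IRI short was −0.137 and that in IRI long −0.136 (exact permutation tests, adjusted p = 0.0267 for both). Within the main island alone the means were −5.57, −5.60 and −5.57, differences from control of −0.0299 and −0.00606 that were not tested. On UMAP_1 the mean was lower at 3 and 14 d than at 1 d by a difference of −0.157 (exact permutation test, p = 0.00444; 0.0178 after adjustment), a call that was lost without any 1 of the 4 libraries at 1 d. With the median coordinate this difference was −0.101 (exact permutation test, adjusted p = 0.0267). The other tests of position did not pass, although that of IRI short against control on UMAP_1 did without norm2 (adjusted p = 0.00866 in the exact permutation test).

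In the second clustering, which holds 2293 B cells among 136794 cells (1.68%), the inhibitor-treated kidneys had B cell fractions within the range of control kidneys. With VX-765, 104 of 10610 cells were B cells, or 0.980% (exact 95% binomial interval 0.802 to 1.19). With liproxstatin, 77 of 12605 were B cells, or 0.611% (interval 0.482 to 0.763). In the same clustering the IRI long libraries at 14 d without inhibitor had 1.85% (interval 1.56 to 2.19) and 2.38% (interval 2.04 to 2.77), and control libraries 0.587 to 1.44%. As a percentage of all cells, both inhibitor libraries thus lay below both IRI long libraries at 14 d by more than counting error. The 2 inhibitors also differed by more than counting error. With 1 library each there is no replicate check and no test of a treatment. No library of the series is labelled as vehicle-treated, so that treatment and experiment cannot be told apart.

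Among immune cells, B cells were 8.33% with VX-765 (interval 6.86 to 10.0) and 11.9% with liproxstatin (interval 9.51 to 14.6). The IRI long libraries at 14 d had 2.87 and 3.17%, and control libraries 4.98 to 25.3%. Immune cells as a whole were 11.8 and 5.13% of the inhibitor libraries, against 64.5 and 75.2% in IRI long at 14 d and 4.07 to 12.4% in control. Relative to T cells, the VX-765 library had 37.3 B cells per 100 T cells, above the 18.6 and 35.3 of IRI long at 14 d, and the liproxstatin library had 24.2, between both. Control libraries spanned 11.1 to 65.5, a range that held all of these values. NK cells, a cluster of this clustering only, were 0.443 and 0.698% of the inhibitor libraries. They were 1.55 and 1.15% in IRI long at 14 d and 0.303 to 5.30% in control.

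**Figure D5:**
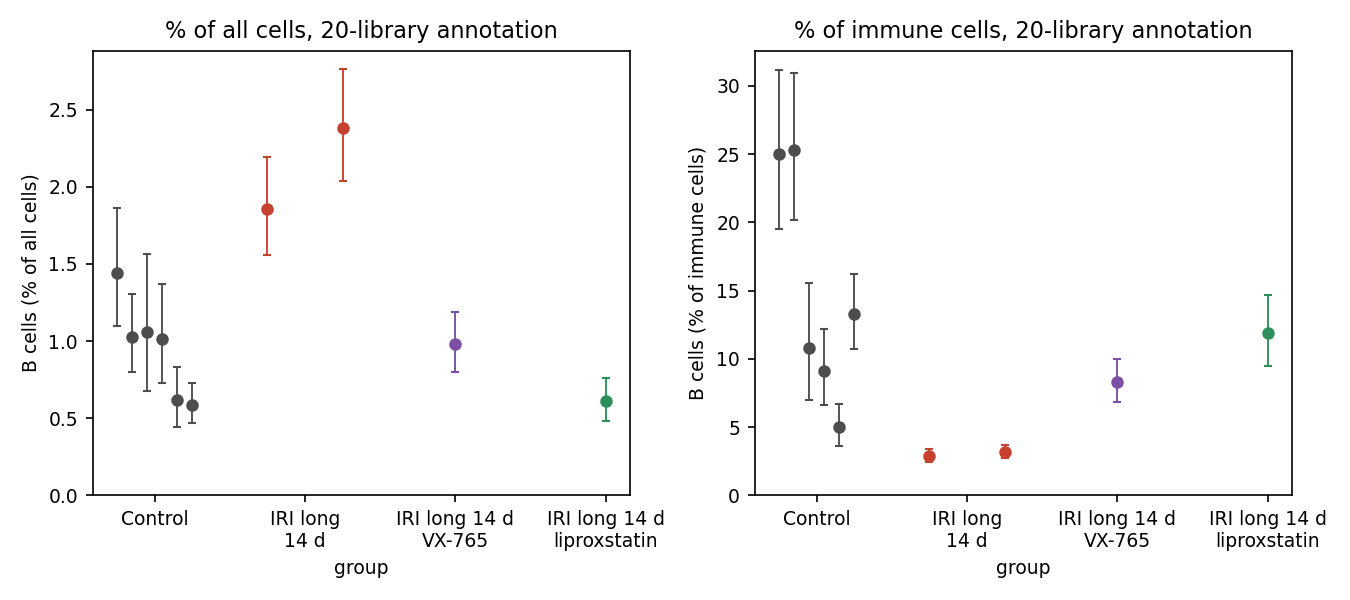
B cells in the 20-library annotation as a percentage of all cells (left) and of immune cells (right) for control, IRI long at 14 d and the 2 inhibitor-treated libraries; points are libraries and bars exact 95% binomial intervals. Among all cells the inhibitor libraries, at 0.980 and 0.611%, sit below IRI long at 14 d (1.85 and 2.38%), and among immune cells, at 8.33 and 11.9%, above it (2.87 and 3.17%).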

How the data were processed

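The authors' methods name 10X 3′ v3 libraries. They aligned the reads with Cell Ranger (the submitters' notes name mm10), filtered cells by gene number and mitochondrial share, and removed doublets. Integration was by LIGER, and cluster names were given by hand. They deposited, for each cell, a cluster name and a treatment group with its day (text labels) and UMAP coordinates, which are scores without unit. How the second clustering was made is described for another cell number only. UMI counts were not used here, so depth is the number of cells. Libraries were identified by the prefix of the cell names and assigned to groups by their cells' labels, not to replicate numbers. Each library was taken as 1 mouse. B cells, as well as the clusters compared, were chosen with earlier results of these data known. Named clusters are B cell, T cell_1, T cell_2, T cell and NK of the second clustering, clusters of the other clustering with at least 1% of the B cells, and others where a count turns on them.

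Logits of the fractions (0.5 cells added) were fitted by limma 3.58.1 (R 4.3.3), with 7 group means and Benjamini-Hochberg adjustment over 18 clusters (threshold 0.05). Library means were compared by exact two-sided permutation, 40 of fractions and log2 ratios and 8 of position, each family adjusted by Benjamini-Hochberg. IRI long against IRI short was permuted within days. Immune cells are B cell, T cell_1, T cell_2, Macro and both Mono and both Granul clusters. T cells are T cell_1 with T cell_2 (in the second clustering, T cell). Scripts were tested on simulated data. The remaining software was scikit-learn 1.9.0, scipy 1.17.1, pandas 2.3.3, numpy 2.4.6 and matplotlib 3.10.9 under Python 3.11.15. The alternatives were other scales, denominators, thinning, the second clustering, a barcode set term and leaving out each library. The map regions were chosen after the data were seen. The name of 1 library is not reported here.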

Additional observations from a re-analysis of the deposited data

Results flagged for a closer look

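In IRI long, the library IRF4 at 3 d stood apart from the other 5 with 5.27% B cells among all cells, against 2.44% in the next library. It also stood apart among immune cells with 7.29%, against 3.32% in the next library. Of the control libraries, norm3 stood apart by the share of B cells that kept their name in the second clustering, which was 60.6% against 88.1% in the next library. In IRI short, IRF8 at 14 d stood apart with 96.0% of B cells among a majority of B cell neighbours, against 97.2% in the next library. These 4 values came from 24 groups of 6 libraries examined for a library far from the rest. Chance alone marks about 1 in 20 groups of like libraries. The IRI groups pooled 1, 3 and 14 d and several measures were related, so that rate need not hold here.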

How the results depend on the processing

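No paired analysis was possible because the library names carry no replicate number of the sample list. The number of cells limits each fraction, and 2 libraries per day limit each comparison by day. The limma changes of B cells against control kept their direction and their side of the threshold over all days under the arcsine square root, 1 cell added, the filter on low counts (which removed no cluster), the second clustering (20-library annotation), the barcode set term and leaving out each library. They reversed under 2 alternatives, which replace the reference of all other cells of a library. One takes the mean log level of all clusters as reference, and the other the immune cells alone. With the centred log-ratio the changes were −0.0833 (IRI short), −0.10 (IRI long), −0.35 (IRI short 1 d), −0.12 (IRI short 14 d) and −0.57 (IRI long 1 d), and they were no longer past the threshold with 0.23 (IRI short 3 d), 0.0583 (IRI long 3 d) and 0.22 (IRI long 14 d). With immune clusters taken apart they were −0.62 (IRI short), −1.13 (IRI long), −0.68, −0.30 and −0.87 (IRI short at 1, 3 and 14 d), and −1.29, −0.73 and −1.37 (IRI long at 1, 3 and 14 d), −0.50 for IRI long against IRI short at 14 d and −0.13 for 14 d against 1 d. Of these, those of IRI long over all days, at 1 d and at 14 d passed the limma threshold (adjusted p = 0.00163, 0.00833 and 0.00649). IRI long against IRI short at 14 d was −0.0284 in the 20-library annotation.

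IRI short at 1 d passed with the 20-library annotation (0.79) and the barcode set term (1.25). The change from 1 d to 3 d passed with the arcsine square root (0.0681 on its scale), 1 cell added (0.84), the 20-library annotation (0.84) and the barcode set term (0.84), and that from 3 d to 14 d with the arcsine square root (−0.0535). The cause of these differences was not tested.

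For the exact tests, the denominator without myeloid cells gave differences of 3.30 (IRI short) and 4.66 (IRI long) percentage points, which passed after adjustment, and reversed IRI long against IRI short to 1.35. Without PT cells IRI long at 1 d was −0.503. Among immune cells the pooled cells gave −3.35 and −5.29, and norm5 alone as control gave 2.36 and 0.340 for IRI short and IRI long. With norm5 alone the lymphoid differences were 16.1 and 15.8, and those of the log2 ratio to T cells 2.50 and 2.51. Differences near 0 changed sign: IRI long against IRI short in the lymphoid percentage (0.00461 on the logit scale and 0.0354 in the 20-library annotation) and in the log2 ratio (−0.00204 with thinning and −0.000479 in the 20-library annotation), IRI long at 14 d in the lymphoid percentage (0.0790 on the logit scale) and in the log2 ratio with T cell_1 only (−0.15), and IRI short at 14 d in the log2 ratio of the 20-library annotation (0.0604).

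For the map position, B cells with the name in both annotations gave −0.125 on UMAP_1 (IRI short against control) as well as −0.411 (IRI long against control) and 0.131 (IRI long against IRI short) on UMAP_2, all past the threshold. They gave −0.00192 for IRI long against IRI short on UMAP_1, a reversal. The median coordinate gave −0.137 (IRI short against control), −0.136 (IRI long against control) and −0.0442 (3 and 14 d against 1 d) on UMAP_2, all past the threshold. It gave −0.101 for 3 and 14 d against 1 d on UMAP_1, which kept its call. In the main island alone, an alternative chosen after seeing the data, the UMAP_2 differences were −0.0299 and −0.00606.

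The inhibitor-treated libraries had 5.25% (VX-765) and 7.79% (liproxstatin) B cells among non-epithelial cells, and 8.33 and 11.9% among immune cells. Among non-epithelial cells IRI long at 14 d had 2.34 and 2.78% and control libraries 3.47 to 12.8%. Among cells other than PT cells the inhibitor libraries had 2.38 and 3.51%. Here IRI long at 14 d had 2.09 and 2.51% and control libraries 0.944 to 3.01%. The lower share among all cells was thus not seen with these denominators.

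Leaving out each library in turn gave limma changes of 0.66 to 0.85 (IRI short 1 d), 0.72 to 0.90 (IRI short 14 d), 0.91 to 1.75 (IRI long 3 d), 0.68 to 0.95 (IRI long 14 d), −0.62 to 0.22 and −0.13 to 0.14 (IRI long against IRI short at 3 d and 14 d) and 0.63 to 1.05 (3 d against 1 d). For the percentage of all cells it gave 1.43 to 1.97 (IRI short), 0.913 to 1.73 (IRI long) and −0.822 to 0.158 (IRI long against IRI short). For the lymphoid percentage it gave −1.87 to 1.26 (IRI long against IRI short) and −5.40 to 3.99 (IRI long 14 d). For the log2 ratio it gave −0.18 to 0.19 (IRI long against IRI short), −0.60 to 0.0631 (IRI short 14 d) and −0.44 to 0.67 (IRI long 14 d). On UMAP_1 it gave −0.168 to −0.0763 (IRI short), −0.0102 to 0.0326 (IRI long against IRI short) and −0.189 to −0.125 (3 and 14 d against 1 d), and on UMAP_2 −0.609 to −0.412 (IRI short) and −0.474 to −0.278 (IRI long).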
